A study of Homo sapiens with 30 samples.

Results

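OCI-Ly10 and TMD8, established human lymphoma cell lines of the activated B-cell-like (ABC) subtype of diffuse large B-cell lymphoma (DLBCL), were compared with each other in the absence of drug. The libraries were chosen by their labels alone. OCI-Ly10 treated with the solvent DMSO gave 4 libraries (6, 12, 18 and 24 h) and TMD8 treated with DMSO gave 3 (6, 18 and 24 h), so that 7 of the 30 RNA-sequencing libraries of the series, and 2 of its 4 cell lines, enter the comparison. The remaining libraries of both lines received 0.5 µM of AZD8186, an inhibitor of the PI3Kβ and PI3Kδ kinases. The labels name the control DMSO, whereas the description of the series speaks of untreated cells. The methods describe a murine ecotropic receptor and a bacterial tetracycline repressor in all cell lines, introduced for retroviral transduction and inducible shRNA. They do not say whether the sequenced cells carried these. For these lines the methods give Iscove's medium with either fetal calf serum or human plasma, without saying which line received which, and the labels give RPMI-1640 with fetal calf serum throughout. The medium and the cell line therefore cannot be told apart. Each line has 1 library per time point, and no source says that they came from separate cultures, so the p-values below measure the spread between these libraries only. Each line is also a single tumor in culture, and a difference between them describes these lines and not the patients' tumors or the subtype.

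ABC DLBCL arises from B cells that were caught on their way to plasma cells. Its lines depend on signals of the B-cell receptor and of Toll-like receptors, which run through PI3K and an adaptor complex with the protease MALT1 to NF-κB and to the factor IRF4. B cells also present antigen. MHC class I molecules (such as HLA-B and HLA-C, with B2M) show peptides cut by the proteasome and pumped by TAP1 and TAP2, and MHC class II molecules (HLA-DR, -DQ and -DP) show peptides exchanged by HLA-DM under control of the coactivator CIITA. Lymphomas often lose parts of this machinery.

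The libraries held 16854122 to 22108545 counts in OCI-Ly10 and 16895332 to 21416282 in TMD8. Spearman's correlation over the tested genes was 0.988 to 0.996 between libraries of a line and 0.877 to 0.886 between libraries of different lines, across genes that are not independent replicates. Ribosomal protein genes took a share of counts that was highest in each line at 6 h, with 21.6% and 23.3%, and lowest at 24 h, with 17.5% in both. Each of the 8 B-cell markers checked was at 1 CPM (counts scaled to the library's normalized total) or more in both lines, with sums of 1660 to 1830 CPM in OCI-Ly10 and 2080 to 2140 CPM in TMD8, and the same held for all 10 ABC markers, with sums of 3160 to 3390 and 2270 to 2540 CPM. The 8 GCB markers (germinal center B-cell-like, the other main subtype) summed to 56.1 to 65.2 and 64.8 to 96.7 CPM. Of 6 T- and NK-cell markers, 1 reached this level in OCI-Ly10 (CD247) and 0 in TMD8, where CD3D, CD3E, CD3G and GNLY were at 0. Markers of myeloid cells summed to 5.43 to 7.99 CPM against 26.0 to 50.6 CPM, mostly through CD68, with S100A8 and S100A9 at 0 in both lines. Those of stroma, endothelium and epithelium summed to 16 to 23.1 CPM against 0.914 to 2.02 CPM, mostly through KRT5, with CDH5 at 0 in both lines. In such bulk libraries fewer cells with a transcript and less of it per cell cannot be told apart.

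Counts were compared for 11884 genes with edgeR's quasi-likelihood test, and differences are given as log2 of OCI-Ly10 minus TMD8 with the standard error (SE). At an adjusted p below 0.05, 3994 genes were higher in OCI-Ly10 (33.6%) and 3864 higher in TMD8 (32.5%). A second, narrower call also asked for a difference of at least 2-fold. It was met by 2043 genes in OCI-Ly10 (17.2%) and 1410 in TMD8 (11.9%), and 429 and 257 genes differed by at least 16-fold. The median difference of all tested genes was 0.0006 and the median absolute difference 0.56 on the log2 scale. The libraries of the lines did not overlap in CPM for 7730 genes (65%). The member counts of the gene lists given further on stand beside these shares of all genes. A list with shares near these differed between the lines about as often as all tested genes.

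**Figure D1:**
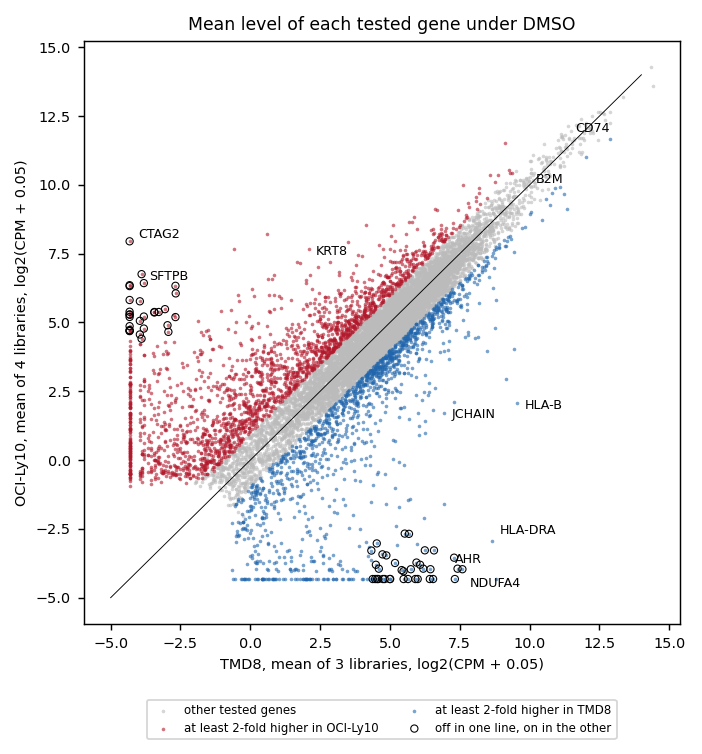
Mean CPM of each of 11874 tested genes under DMSO, with 0.05 added and on a log2 scale, TMD8 (3 libraries) on the horizontal and OCI-Ly10 (4 libraries) on the vertical axis. Some of the genes that the naming rule leaves out are not drawn. Red and blue points are called at least 2-fold higher in OCI-Ly10 or TMD8, and circles mark genes off in one line and on in the other, which sit at the left edge (CTAG2, SFTPB) and along the bottom (NDUFA4, AHR), away from the diagonal on which both lines are equal.

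The AZD8186 libraries of the same lines, which share no library with the comparison above, gave a second measurement. There 11781 genes could be tested, with 3771 higher in OCI-Ly10 (32.0%) and 3607 higher in TMD8 (30.6%). Of 7694 genes called under DMSO and tested under AZD8186, 7618 had the same direction and 6583 were called in it, while 10 were called in the opposite direction. Of the 3291 that differed at least 2-fold, 3155 (95.9%) were called in the same direction. A change of the difference between the lines under the drug, tested as an interaction with the pair of libraries of a line and time as a block, passed for 48 of 12190 genes (0.394%). At the 3 time points that all 4 lines of the series share, 61.4% of the tested genes were called between OCI-Ly10 and TMD8. The figure was 78.1% and 77.5% between OCI-Ly10 and the GCB lines HT and K422, 73.6% and 73.7% between TMD8 and these lines, and 73.3% between HT and K422. By the call of at least 2-fold, the share was 28.5% between OCI-Ly10 and TMD8 and 28.8% between HT and K422. It was 40.1% to 42.4% between the other pairs. The common coefficient of variation between libraries, which limits the calls, was 0.14 for OCI-Ly10 with TMD8 and 0.0809 for HT with K422. These comparisons share libraries, and their differences were not tested.

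Antigen presentation held some of the largest differences. In OCI-Ly10 the class I genes HLA-B and HLA-C were low and a block of class II and peptide-processing genes was at or near 0, whereas the class II genes next to this block, the invariant chain CD74 and CIITA were higher than in TMD8. Promoters of a gene inside the block (HLA-DRB1) and of a gene beyond its edge (HLA-DMA) are shown because the direction differs between the sides. Neither gene lies directly at the edge. Sequences are RefSeq's, build GRCh38.p14, 250 bases upstream of the annotated start, and capitals mark CTGATTGG, the core of the Y box of class II promoters, searched on both strands.
HLA-DRB1 (chr6:32589849-32590098, minus strand, lower in OCI-Ly10): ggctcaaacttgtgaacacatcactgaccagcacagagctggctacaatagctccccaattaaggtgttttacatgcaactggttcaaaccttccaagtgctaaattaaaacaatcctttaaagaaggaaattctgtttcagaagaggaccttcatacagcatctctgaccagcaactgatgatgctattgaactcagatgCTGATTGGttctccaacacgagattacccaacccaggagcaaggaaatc
HLA-DMA (chr6:32953098-32953347, minus strand, higher in OCI-Ly10): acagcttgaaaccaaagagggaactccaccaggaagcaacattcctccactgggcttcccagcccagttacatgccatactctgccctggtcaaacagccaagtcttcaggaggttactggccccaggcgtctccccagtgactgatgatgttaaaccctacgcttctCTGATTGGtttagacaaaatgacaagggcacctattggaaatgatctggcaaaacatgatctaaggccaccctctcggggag
The match starts 49 bases before the start of HLA-DRB1 and 82 bases before that of HLA-DMA. Among class II list genes with a promoter entry, 2 of 9 higher in OCI-Ly10 (HLA-DMA and RFX5) and 3 of 6 higher in TMD8 (HLA-DRB1, HLA-DRB5 and HLA-DQA2) hold these letters in the 300 bases around the start, against 3.98% of all 34961 promoters. A gene counts when any of its promoters matches, so the counts of genes and the share of promoters are unlike measures. A match of letters describes the sequence and says nothing of binding.

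The class II block stood out in every library. HLA-DRA, the chain of the HLA-DR pair that varies little between people, was at 0.281, 0, 0 and 0.0432 CPM in OCI-Ly10 at 6, 12, 18 and 24 h and at 459, 410 and 349 CPM in TMD8 at 6, 18 and 24 h. Counted over the libraries of each line, the ratio of TMD8 to OCI-Ly10 was 5150 (95% exact counting interval 2370 to 14000). The partner chain HLA-DRB1 followed with 0.281, 0, 0 and 0 CPM against 68.1, 67.3 and 52.6 CPM. No library of OCI-Ly10 came near any library of TMD8. HLA-DRA also had 35.7 CPM in HT and 586 CPM in K422 on average, so that OCI-Ly10 was the only one of the 4 lines at or near 0.

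The low genes were neighbours. A run is defined here as at least 3 tested genes in direct succession on a chromosome that differ at least 4-fold in the same direction and pass the test. The run on chromosome 6 spans 32194843 to 32859585 (665 kb, GENCODE 29 on GRCh38) and holds 11 tested genes, NOTCH4, HLA-DRA, HLA-DRB5, HLA-DRB6, HLA-DRB1, HLA-DQA1, HLA-DQA2, TAP2, PSMB8, PSMB9 and TAP1, all higher in TMD8. No OCI-Ly10 library had more than 8 counts for any of them. The transporter subunits were at 0.169, 0, 0 and 0.0432 CPM (TAP1) and 0, 0.0597, 0 and 0 CPM (TAP2) in OCI-Ly10, against 85, 68.6 and 74.2 CPM and 53.5, 79.3 and 86.0 CPM in TMD8. PSMB8 and PSMB9, which encode subunits of the immunoproteasome, had 1 and 3 counts over the 4 OCI-Ly10 libraries and means of 87.3 ± 8.12 and 26.5 ± 7.26 CPM (SD, n = 3) in TMD8. The same 11 genes were called in the same direction under AZD8186. Reads per gene cannot tell a lost segment from silent genes, and neither was tested.

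On the telomeric side the next tested gene, GPSM3, was expressed in both lines (26.8 against 54.4 CPM). On the centromeric side the direction turned with the next tested gene. HLA-DMB, a chain of the peptide exchanger HLA-DM, was at 36.0, 29.3, 32.5 and 27.5 CPM in OCI-Ly10 and 9.28, 10.1 and 8.71 CPM in TMD8 (log2 difference 1.74, SE 0.13). HLA-DMA, its partner, was at 62.4 ± 5.44 against 15.7 ± 3.89 CPM (log2 difference 2.0, SE 0.15) and HLA-DOA, a chain of the HLA-DM inhibitor, at 32.8 ± 6.56 against 11.3 ± 2.71 CPM. HLA-DPA1 was at 569, 540, 567 and 546 CPM in OCI-Ly10 and 111, 98.4 and 84.0 CPM in TMD8 (log2 difference 2.51, SE 0.11). Its partner HLA-DPB1 differed by 0.26 (SE 0.11, adjusted p = 0.0477), with 86.3, 87.7, 86.4 and 74.3 CPM against 76.8, 72.9 and 60.6 CPM, so that the libraries overlapped, and it did not pass under AZD8186 (0.36, adjusted p = 0.0679). The flanking genes were chosen after their values had been seen.

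Genes elsewhere in the genome that serve class II presentation went both ways. CIITA, the master coactivator of class II genes, was at 103, 111, 115 and 107 CPM in OCI-Ly10 and 33.6, 18.8 and 19.5 CPM in TMD8 (log2 difference 2.19, SE 0.18). CD74 was at 4430 to 4520 CPM against 2520 to 2800 CPM (log2 difference 0.77, SE 0.11), and the protease CTSH at 164 against 56.5 CPM. RFXANK, a subunit of the RFX factor that binds class II promoters, was at 45.8 to 50.8 against 63.3 to 81.8 CPM (-0.57, SE 0.10), and IFI30, a reductase that helps unfold antigens, at 325 to 370 against 528 to 719 CPM (-0.81, SE 0.11). Over the class II list, 18 of 22 genes could be tested, of which 11 were higher in OCI-Ly10 and 7 higher in TMD8, 6 and 5 of them at least 2-fold, with a median of 0.31. Every tested gene of this list passed the test under DMSO, where 66.1% of all tested genes did. Under AZD8186 9 were higher in OCI-Ly10 and 8 in TMD8.

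Of the class I genes, HLA-B was at 4.89, 3.04, 4.45 and 4.23 CPM in OCI-Ly10 and 985, 677 and 589 CPM in TMD8 (log2 difference -7.49, SE 0.21). HLA-C was at 7.03 to 8.27 against 521 to 654 CPM. Values of these polymorphic genes also depend on how well a line's alleles match the transcripts that the reads were aligned to, which was not tested. B2M, their invariant light chain, was at 1350, 1180, 1200 and 1150 CPM against 1030, 1040 and 891 CPM (log2 difference 0.31, SE 0.11, adjusted p = 0.0208), and its difference no longer passed the test without the 24 h library of TMD8 (0.23) or under AZD8186 (0.22). NLRC5, the coactivator of class I genes, was higher in OCI-Ly10 (23.8 against 12.1 CPM, log2 difference 0.97). ERAP2, a peptidase that trims class I peptides, was at 56.8 to 70.6 against 1.35 to 1.78 CPM (log2 difference 5.39, SE 0.16), and the related ERAP1 at 69.4 against 81.1 CPM without passing the test. Of 28 tested genes of the class I list, 6 were higher in OCI-Ly10 and 16 in TMD8, and 2 and 12 at least 2-fold, with a median of -0.40. CD58, a ligand that T and NK cells use to bind lymphoma cells, was also lower in OCI-Ly10, with 3.04, 3.46, 4.30 and 2.72 CPM against 26.5, 16.2 and 12.1 CPM.

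**Figure D2:**
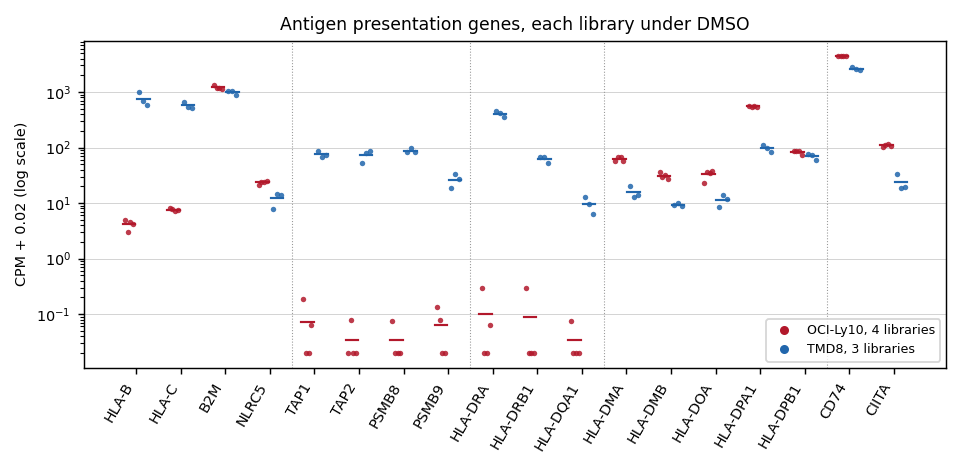
CPM of antigen presentation genes in each DMSO library, with 0.02 added, on a log axis; points are libraries (red OCI-Ly10, blue TMD8) and bars the mean of a line. From left to right stand HLA-B and HLA-C with B2M and NLRC5, the processing genes and the HLA-DR and -DQ genes of the chromosome 6 run, its class II neighbours, and CD74 and CIITA. OCI-Ly10 lies at the bottom of the plot from TAP1 to HLA-DQA1 and above TMD8 from HLA-DMA onward, except for HLA-DPB1, whose libraries overlap.

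A longer stretch without transcripts in OCI-Ly10 was found on chromosome 7. The run from 10931951 to 17940501 (7009 kb) holds 9 tested genes, NDUFA4, PHF14, TMEM106B, ISPD, ANKMY2, BZW2, TSPAN13, AHR and SNX13, and 12 further listed genes that were too low to be tested. No OCI-Ly10 library had more than 1 count for any of these 21 genes. AHR, the aryl hydrocarbon receptor, was at 0 CPM in the 4 OCI-Ly10 libraries and at 183, 134 and 163 CPM in TMD8. Against a floor of 3 counts over the OCI-Ly10 libraries it was at least 4100-fold higher in TMD8. NDUFA4, a subunit associated with cytochrome c oxidase, had 1 count over the OCI-Ly10 libraries against 241, 181 and 157 CPM (ratio 14600, 2610 to 575000). BZW2, which resembles translation initiation factors, had 1 count against 159, 190 and 165 CPM (ratio 13300, 2380 to 525000). HT and K422 expressed NDUFA4 at 209 and 208 CPM and BZW2 at 116 and 159 CPM, but AHR only at 0.0831 and 0.0227 CPM.

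GLCCI1, the nearest tested gene before this stretch, ends at 8094272, so that no tested gene lies between that position and the start of the run. It was at 5.31 to 7.68 CPM in OCI-Ly10 and 18.7 to 24.1 CPM in TMD8. TWISTNB, the nearest tested gene after the stretch, encodes a subunit of RNA polymerase I and was at 40.4 to 44.4 and 42.8 to 54.0 CPM, a difference that did not pass the test (-0.20, SE 0.10). HDAC9, which lies between SNX13 and TWISTNB, was at 0 in OCI-Ly10 and at 0.259 to 0.953 CPM in TMD8 and could not be tested under DMSO. Under AZD8186 edgeR's test called it higher in TMD8 (log2 difference -8.31, adjusted p = 2.85e-05). All 8 run genes that could be tested under AZD8186 were called in the same direction there.

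**Figure D3:**
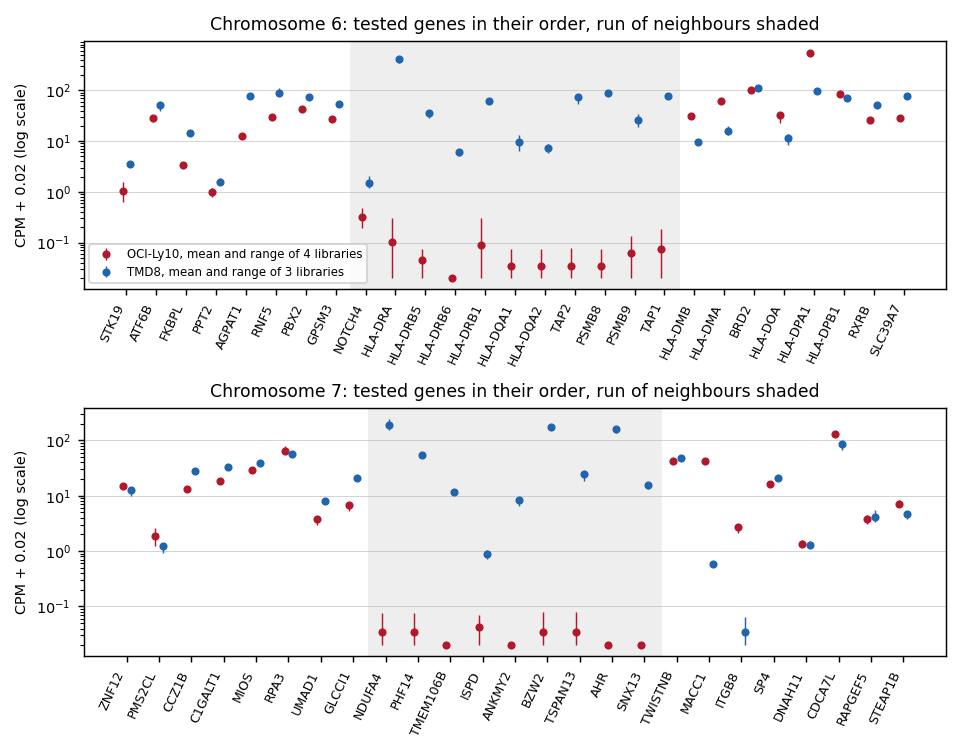
Mean CPM (points) and the range over libraries (lines), with 0.02 added and on a log axis, of tested genes in their order along chromosome 6 (upper panel) and chromosome 7 (lower panel), OCI-Ly10 in red and TMD8 in blue; the spacing is not to scale. The shaded runs hold 11 and 9 genes at or near 0 in OCI-Ly10, except NOTCH4 with a mean of 0.304 CPM. Outside the shading both lines express nearly every gene, and HLA-DMB, HLA-DMA, HLA-DOA and HLA-DPA1 are higher in OCI-Ly10.

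On chromosome 9 it was TMD8 that lacked transcripts. MTAP, which salvages methionine and lies beside the tumor suppressor gene CDKN2A, was at 36.5, 42.7, 44.7 and 43.7 CPM in OCI-Ly10 and at 0 in the 3 TMD8 libraries (at least 814-fold higher in OCI-Ly10). CDKN2A itself, which encodes cell-cycle inhibitors, was at 0 in all 7 libraries, while HT and K422 had 95.1 and 160 CPM. CNTLN, nearby on the same arm, was at 13.4 to 18.4 CPM against 0 (at least 304-fold), and KLHL9, which lies between them, was expressed in both lines with 16.8 against 23.4 CPM. CNTLN and KLHL9 were chosen after their values had been seen.

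Over the genome there were 46 runs, 30 higher in OCI-Ly10 and 16 in TMD8, which together held 176 genes, and 6 runs had 5 or more genes. Of these, 1 run consists of genes that the naming rule leaves out. On chromosome 8, from 132866958 to 139704109, TG, SLA, NDRG1, ST3GAL1, ZFAT, KHDRBS3 and KCNK9 were higher in OCI-Ly10. SLA, an adaptor that dampens receptor signals, was at 219, 219, 210 and 222 CPM against 55.0, 41.7 and 47.7 CPM. ZFAT, a zinc finger factor, was at 101 to 142 against 19.4 to 24.4 CPM. Both genes were thus lower in TMD8 and not silent.

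Several runs were families of genes that sit side by side. On chromosome 19, from 57578456 to 57717301, the zinc finger genes ZIK1, ZNF530, ZNF134, ZNF211, ZNF551 and ZNF154 were higher in TMD8, with ZNF134 at 0 in OCI-Ly10 and at 105, 87.8 and 86.7 CPM in TMD8 (at least 2380-fold). In another cluster of the same arm, from 52838008 to 52962911, ZNF468, ZNF320, ZNF888, ZNF321P and ZNF816 went the opposite way, with ZNF816 at 9.28, 12.8, 9.25 and 8.76 CPM against 0 (at least 191-fold). Zinc finger genes of a cluster resemble each other, and RSEM divides reads that fit several of them. HT and K422 expressed ZNF134 at 16.7 and 18.9 CPM and ZNF816 at 8.41 and 15.2 CPM.

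The fatty acid desaturases FADS1, FADS2 and FADS3, neighbours on chromosome 11, were higher in OCI-Ly10. FADS2 was at 204, 201, 204 and 208 CPM against 0.318, 0.726 and 0.827 CPM (log2 difference 8.28, SE 0.18) and FADS1 at 53 to 67.3 against 4.64 to 8.44 CPM. The inflammatory caspases CASP4 and CASP1 and the inhibitor CARD16 formed a run on chromosome 11 and the protease inhibitors SERPINB1, SERPINB9 and SERPINB6 a run on chromosome 6, all higher in OCI-Ly10. SERPINB6 was at 30.3 to 34.2 against 0 to 0.348 CPM. The B-cell antigens GCSAM, CD200 and BTLA with C3orf52 formed a run on chromosome 3, and FCMR, the receptor for IgM, a run with PIGR and IL19 on chromosome 1. FCMR was at 84.7, 111, 124 and 102 CPM against 1.97, 1.56 and 1.65 CPM (log2 difference 5.94, SE 0.18).

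Higher in TMD8 were the metallothioneins MT1E, MT1F, MT1G and MT1H on chromosome 16, which bind metal ions, whereas MT2A beside them was higher in OCI-Ly10 (84.9 against 40.9 CPM). Metallothionein genes are near-identical in part, so their split is uncertain. On the X chromosome the RNA sensors TLR7 and TLR8 and the actin-binding TMSB4X were higher in TMD8. TLR8 was at 0 in OCI-Ly10 and at 1.40, 1.76 and 1.78 CPM in TMD8 (at least 43.2-fold), and TMSB4X at 525 to 627 against 2340 to 2920 CPM. MKRN3, SNRPN and SNURF on chromosome 15, which are imprinted, were at 0 in TMD8 and SNURF was at 31.5, 23.2, 23.3 and 25.5 CPM in OCI-Ly10 (at least 500-fold). SNRPN and SNURF share transcripts and are not 2 independent genes. Their neighbours TUBGCP5 and UBE3A were expressed in both lines.

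Differences of whole regions were smaller. Tested genes were also taken in 576 windows of 20 successive genes, of which 4 had every gene higher in OCI-Ly10 and 3 every gene higher in TMD8. The window with the highest median, 2.04, lay on chromosome 22 from 44668547 to 49827512, with PRR5, a partner of mTOR complex 2, at 36.3 to 38.4 CPM against 0 to 0.0636 CPM. The next lay on chromosome 3 from 196596 to 9793011 (median 1.53), where CHL1 and LRRN1 were at 0 in TMD8. The lowest median, -1.76, belonged to a window of chromosome 19 from 57681969 to 58362848. Its neighbour, from 57191500 to 57642779, had -1.25 with 20 of 20 genes called higher in TMD8, and the window of chromosome 6 that holds the start of the class II block had -1.25 as well.

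By whole chromosome, medians ran from -0.35 on chromosome 10 to 0.46 on chromosome 7, although chromosome 7 holds the stretch without transcripts in OCI-Ly10. On chromosome 7, 56.4% of the genes were higher in OCI-Ly10 and 13.5% higher in TMD8, and on chromosome 12 (median 0.43) 56.8% and 15.5%. On chromosome 22 the median was 0.37, on chromosome 20 it was -0.27 and on chromosome 18 it was -0.24. On chromosome 10, 22.6% were higher in OCI-Ly10 and 50.2% in TMD8. The AZD8186 libraries gave medians of 0.49 for chromosome 7, 0.42 for chromosome 12, 0.36 for chromosome 22 and -0.34 for chromosome 10. Chromosome copy numbers were not measured here.

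**Figure D4:**
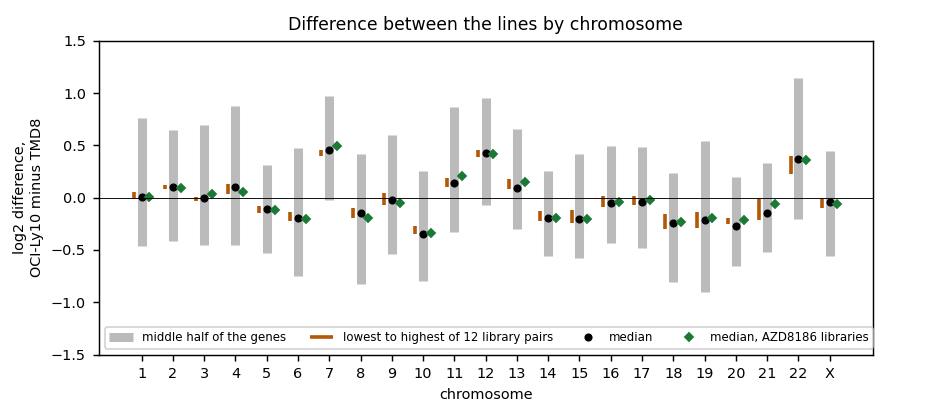
Difference between the lines (log2, OCI-Ly10 minus TMD8) by chromosome: black points are the median over tested genes, grey bars the interquartile range, orange lines the range of medians over the 12 pairs of a library of each line (on log2 of CPM with 0.5 added), and green diamonds the medians of the AZD8186 libraries. Chromosomes 7, 12 and 22 stand at 0.37 to 0.46 and chromosome 10 at -0.35.

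Some genes were off in one line and on in the other, meaning at most 3 counts in every library of one line and a mean of at least 20 CPM in the other. In OCI-Ly10 29 genes were on and in TMD8 40 genes, of which 36 can be named. Under AZD8186, 25 of the 29 and 39 of the 40 were again at 3 counts or fewer in every library of the off line. At least 1 CPM in HT or K422 was found for 13 of the 29 and 27 of the 40.

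Those on in OCI-Ly10 likewise had varied roles, from germline antigens to enzymes such as MTAP, CERS6, which makes ceramides, and AGPAT2, which makes phosphatidic acid (at least 814-, 763- and 760-fold). The cancer-testis antigen CTAG2 was at 289, 239, 226 and 235 CPM and at 0 in TMD8 (at least 4750-fold), MAGEB2 at 73.8 to 84.9 CPM against 0 (at least 1550-fold) and MAGEA1 at 71.1 to 85.9 CPM against 0.0871 to 0.127 CPM. SFTPB, a lung surfactant protein, was at 80.3, 107, 119 and 126 CPM with 1 count over the TMD8 libraries (ratio 6360, 1140 to 251000). The guidance cue SEMA3C was at 76.7 to 90.0 CPM, the transcription factor FOXC1 at 58.0 to 70.7 CPM, the ion channel PIEZO2 at 37.6 to 69.1 CPM and the inflammasome protein NLRP2 at 75.7 to 88.5 CPM. None of SFTPB, SEMA3C, FOXC1, PIEZO2 and MAGEB2 reached 1 CPM in HT or K422, whereas NLRP2 and MAGEA1 had 42.4 and 78.8 CPM in K422.

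On in TMD8 were, besides the chromosome 6 and 7 genes, others with varied roles. DHCR7, the last enzyme of cholesterol synthesis, was at 136, 146 and 188 CPM with 3 counts over the OCI-Ly10 libraries (ratio 4130, 1410 to 20000) and at 103 and 108 CPM in HT and K422. RPP25, a subunit of RNase P, was at 102, 80.9 and 74.8 CPM and at 0 in OCI-Ly10 (at least 2170-fold), and BNIP3, a mitophagy receptor, at 59.8 to 75.8 CPM with 2 counts over the OCI-Ly10 libraries. CHFR, a mitotic checkpoint ligase, was at 22.9 to 30.4 CPM and at 0 in OCI-Ly10 (at least 700-fold). Others were at or near 0 in the other 3 lines. CREB3L1, an endoplasmic reticulum-bound factor, was at 92.1, 111 and 82.4 CPM, the adhesion protein CDH1 at 29.5, 80.2 and 75.3 CPM and the receptor GPR15 at 51.0, 60.7 and 68.5 CPM, with none of the 3 above 0.0376 CPM in HT or K422.

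The interferon-stimulated genes divided between the lines. Of 45 tested genes of this list 11 were higher in OCI-Ly10 and 27 higher in TMD8, and 7 and 18 at least 2-fold, with a median of -0.65. The promoters of a gene from either side are printed, with capitals marking the interferon response motif, a GAAA that is followed after any pair of bases by another GAAA, searched on both strands.
IFIT1 (chr10:89392373-89392622, plus strand, higher in TMD8): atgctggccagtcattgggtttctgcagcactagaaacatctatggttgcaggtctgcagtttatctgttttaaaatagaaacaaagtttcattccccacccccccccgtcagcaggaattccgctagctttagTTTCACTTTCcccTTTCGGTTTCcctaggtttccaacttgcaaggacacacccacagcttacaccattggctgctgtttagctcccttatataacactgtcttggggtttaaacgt
ISG20 (chr15:88638766-88639015, plus strand, higher in OCI-Ly10): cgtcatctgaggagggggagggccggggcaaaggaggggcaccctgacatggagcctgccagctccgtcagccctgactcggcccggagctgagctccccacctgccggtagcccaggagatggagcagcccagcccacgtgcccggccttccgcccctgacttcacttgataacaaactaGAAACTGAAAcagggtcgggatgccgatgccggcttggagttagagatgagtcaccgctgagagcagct
The motif stands in 3.58% of all promoters. Of list genes with a promoter entry, 5 of 8 higher in OCI-Ly10, 15 of 19 higher in TMD8 and 4 of 5 that did not pass hold it. A gene counts when any of its promoters matches, so these shares of genes and the share of promoters are unlike measures.

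IFIT1, which binds foreign RNA, was at 0.169, 0.358, 0.455 and 0.216 CPM in OCI-Ly10 and 27.3, 17.5 and 14.8 CPM in TMD8 (log2 difference -6.03, SE 0.31), and its neighbours IFIT2 and IFIT3 had the same direction. The antiviral MX1 was at 59.7 to 94.0 against 308 to 470 CPM. ISG15, the ubiquitin-like modifier, differed less (42.1 against 80.8 CPM, log2 difference -0.94). The other way, OAS1, which makes the activator of RNase L, was at 287, 288, 279 and 274 CPM against 28.6, 36.8 and 33.3 CPM (log2 difference 3.10, SE 0.11), the exonuclease ISG20 at 67.2 to 81.2 against 22.1 to 24.7 CPM and the GTPase GBP1 at 22.8 to 39.5 against 6.48 to 7.36 CPM. IRF7 and TRIM22 did not pass the test, with differences of -0.14 (SE 0.10) and -0.02 (SE 0.12).

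Of 21 tested innate sensors and inflammasome genes, 15 were higher in OCI-Ly10 and 1 higher in TMD8, 12 and 1 at least 2-fold, with a median of 1.25. The DNA sensor AIM2 was at 56.9 to 69.5 against 23.9 to 30.4 CPM, CASP1, which matures interleukin-1β, at 12.8, 9.55, 10.5 and 11.6 CPM against 0.699, 1.61 and 1.0 CPM, and the pore-forming GSDMD at 40.5 to 54.0 against 3.88 to 11.2 CPM. Without the 6 h library of TMD8, 3 were called higher in TMD8. The exception above was CGAS, the sensor of cytosolic DNA, with 2.92 to 3.34 against 8.14 to 10.7 CPM.

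PI3K, the target of the study's inhibitor, is built of a catalytic and a regulatory subunit. Of 14 tested subunits and partners 2 were higher in OCI-Ly10, 9 were higher in TMD8 and 3 did not pass, with 2 genes at least 2-fold in either direction and a median of -0.55. PIK3CD, the PI3Kδ catalytic subunit of leukocytes, was at 216, 224, 175 and 203 CPM against 323, 248 and 292 CPM (log2 difference -0.49, SE 0.11, adjusted p = 0.00193). PIK3CB, the PI3Kβ catalytic subunit, was at 18.2, 18.2, 19.4 and 19.2 CPM against 24.5, 29.4 and 28.8 CPM (log2 difference -0.56, SE 0.11, adjusted p = 0.000666). The libraries did not overlap for either gene, which held for 65% of all tested genes. PIK3CA and PIK3CG differed by 0.17 (SE 0.15) and 0.38 (SE 0.22) and did not pass.

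Among the regulatory subunits PIK3R1 was at 17.8 to 20.4 CPM in OCI-Ly10 and 56.0 to 67.9 CPM in TMD8 (log2 difference -1.67, SE 0.11), and PIK3R2 at 68.0 against 118 CPM (-0.79, SE 0.12). PIK3R5, which couples PI3Kγ to G proteins, was at 1.01, 0.358, 0.505 and 0.777 CPM against 24.9, 28.9 and 30.0 CPM (-5.37, SE 0.22), and HT and K422 had 0 CPM. PIK3R3 did not pass. The class III kinase PIK3C3 and its partner PIK3R4 were higher in TMD8, by 0.83 and 0.54 on the log2 scale, as were PIK3C2A (adjusted p = 0.0103) and PIK3AP1, the B-cell adaptor of PI3K, by 0.57 and 0.58. PIK3C2B (1.42, SE 0.31) and the inhibitor PIK3IP1 (1.36, SE 0.55, adjusted p = 0.0435) were higher in OCI-Ly10, the latter below 1 CPM in every library and without a call when any 1 library was left out (0.88 to 1.54). PIK3R6 was at 0 in OCI-Ly10 and too low to be tested.

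Of 19 phosphatases and related genes that oppose PI3K, 7 were higher in OCI-Ly10, 5 higher in TMD8 and 7 did not pass, with a median of -0.12. SHIP1 (INPP5D), SHIP2 (INPPL1) and INPP4A were higher in OCI-Ly10, by 0.42, 0.57 and 0.50, each with SE 0.12 to 0.15. INPP4B was below 1 CPM in both lines. The scaffold PPP2R1A of the phosphatase PP2A was at 478 to 522 against 980 to 1060 CPM, and the lipid phosphatase MTM1 at 9.80 to 11 against 2.99 to 4.93 CPM.

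Downstream, 35 genes of AKT, SGK, mTOR and FOXO were tested, with 12 higher in OCI-Ly10, 15 higher in TMD8 and a median of 0.09. AKT1 was higher in OCI-Ly10 by 0.36 on the log2 scale (SE 0.14, adjusted p = 0.0415), a call that did not hold without the 12, 18 or 24 h library of OCI-Ly10 or without any library of TMD8 (0.18 to 0.39), while AKT2 (-0.64) and MTOR (-0.83) were higher in TMD8. SGK1, a kinase related to AKT, was at 3.54 to 4.59 against 14.3 to 18.1 CPM, and DDIT4, which restrains mTOR complex 1, at 4.12 to 6.91 against 23.5 to 33.9 CPM. The adaptor IRS2 was at 12.9 to 23.6 against 1.53 to 1.97 CPM and the transcription factor FOXO1 at 37.6 to 43.2 against 13.4 to 19.5 CPM. RICTOR did not pass.

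Of 41 tested B-cell receptor genes 20 were higher in OCI-Ly10 and 8 higher in TMD8, 9 and 4 at least 2-fold, with a median of 0.33. Called were 68.3% of these genes, against 66.1% of all tested genes. Under AZD8186 the counts were 16 and 9 and the median 0.12. Among the adaptors, the scaffold BANK1 was at 49.3 to 59.2 against 4.96 to 7.44 CPM, the inhibitory adaptor DOK3 at 79.2 to 105 against 11.1 to 14.9 CPM and the linker BLNK at 260 to 323 against 106 to 109 CPM.

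The receptor chains themselves differed in both directions, with CD79B at 354 against 183 CPM (0.96, SE 0.13) and CD79A at 522 against 774 CPM (-0.57, SE 0.10). The kinase LYN was at 190, 200, 195 and 178 CPM against 792, 645 and 658 CPM (-1.87, SE 0.10), and SYK at 616 against 397 CPM (0.63, SE 0.11), a difference that did not pass under AZD8186 (0.22). BTK, the target of ibrutinib, did not pass (0.07, SE 0.10, 95% interval -0.16 to 0.29).

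In the NF-κB pathway MALT1, MYD88, NFKB1, NFKBIA and TNFAIP3 did not pass, with differences between -0.20 and 0.24. Of these, NFKB1 passed without the 6 h (0.49), MALT1 without the 18 h (-0.27) and NFKBIA without the 24 h library of TMD8 (-0.34). CHUK, the kinase IKKα of the alternative pathway, was at 9.95, 9.19, 11.5 and 9.37 CPM against 54.4, 55.6 and 55.5 CPM (-2.46, SE 0.11), and IKBKB and MAP3K7 were higher in TMD8 by 1.10 and 1.38 on the log2 scale. IKBKE, a related kinase, was higher in OCI-Ly10 (9.75 to 14.8 against 5.4 to 5.72 CPM, 1.06, SE 0.17). NFKB2, the alternative subunit, was at 90.2 to 131 against 214 to 409 CPM. The atypical inhibitor NFKBIZ was at 147 to 191 against 35.4 to 50.5 CPM (1.94, SE 0.14). Of 34 subunits, inhibitors and kinases 6 were higher in OCI-Ly10 and 17 in TMD8, with a median of -0.24. Called were 67.6% of them, against 66.1% of all tested genes.

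The 52 NF-κB target genes tested went both ways, 21 higher in OCI-Ly10 and 18 in TMD8, 13 and 8 at least 2-fold, with a median of 0.11. CCR7, a homing receptor, was at 343 to 424 against 26.8 to 40.4 CPM (3.45, SE 0.15), the superoxide dismutase SOD2 at 223 to 266 against 31.7 to 41.4 CPM and the factor IRF1 at 33.1 to 35.9 against 5.09 to 6.07 CPM. IER3, an early response gene, was at 4.40 to 4.89 against 28.2 to 30.1 CPM. For several cytokine genes the 6 h library of TMD8 stood above the other TMD8 libraries. TNF was at 9.05, 10.1, 9.80 and 7.90 CPM in OCI-Ly10 and 74.7, 27.1 and 18.4 CPM in TMD8. The enzyme IL4I1 was at 20.9 to 27.5 against 443, 135 and 88.4 CPM, and the lymphotoxin LTA at 5.79 to 7.52 against 95, 19 and 13.4 CPM. IL6 was at 0.820 to 0.900 CPM against 4.19, 0.207 and 0.435 CPM and did not pass (-0.83, SE 0.72), and without the 6 h library of TMD8 its difference was 1.36. Without that library the difference was -1.31 for TNF, against -2.11 with it, and -2.16 for IL4I1, against -3.15.

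CFLAR, which restrains caspase-8, was at 481 to 517 against 307 to 470 CPM (0.45, SE 0.13), and the call did not hold without the 18 h (0.38) or the 24 h library of TMD8 (0.32). BCL2L1 was lower in OCI-Ly10 (46.2 against 90.0 CPM, -0.96, SE 0.19) and BCL2 higher (189 against 85.4 CPM, 1.14, SE 0.11), both restraining the mitochondrial death pathway. Over 36 tested BCL2 family and death genes, 10 were higher in OCI-Ly10 and 11 in TMD8, with a median of -0.03. The BH3-only genes BMF and BIK were higher in OCI-Ly10 with 159 against 47.5 CPM and 14.4 against 1.0 CPM.

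Of 29 tested Toll-like receptor genes, 11 were higher in OCI-Ly10 and 8 in TMD8 (median 0.07), and 65.5% were called, against 66.1% of all tested genes. TLR7 was at 2.15 to 2.81 against 11.9 to 17 CPM and TLR10 at 4.36 to 6.86 against 25.5 to 29.7 CPM, while TLR9, the receptor for unmethylated DNA, did not pass (135 against 132 CPM). IRAK3, which restrains the pathway, was at 0.619 to 0.716 against 5.28 to 10.0 CPM. In the JAK-STAT list 17 of 40 were higher in OCI-Ly10 and 15 in TMD8 (median 0.11), which makes 80.0% called. The interleukin-6 receptor chains IL6R (71.1 to 85.9 against 11.9 to 15.5 CPM) and IL6ST (21.9 against 3.0 CPM) and JAK1 (297 against 117 CPM) were higher in OCI-Ly10. SOCS3, the feedback inhibitor, was at 30.8, 30.4, 29 and 30.1 CPM against 137, 138 and 138 CPM (-2.20, SE 0.08), and JAK2 was at 9.34 against 30.9 CPM. STAT3 was at 354 against 442 CPM (-0.32, SE 0.10, adjusted p = 0.0103) and lost its call under AZD8186 (-0.70).

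The markers of the ABC subtype were expressed in both lines, with 13 of 22 tested higher in OCI-Ly10 and 6 in TMD8, 8 and 1 at least 2-fold, and a median of 0.73. SH3BP5 was at 563 to 719 against 214 to 235 CPM, the factor ETV6 at 86.6 to 141 against 11.1 to 13.3 CPM and BATF at 636 to 724 against 315 to 487 CPM. IRF4, the factor on which ABC lines depend, was higher in TMD8 (515 ± 66.0 against 726 ± 62.3 CPM, -0.50, SE 0.11), and ENTPD1 likewise (111 against 237 CPM). PRDM1, which drives plasma cell differentiation, did not pass (67.4 against 63.3 CPM).

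Of 23 tested germinal center markers 9 were higher in either line, 9 and 5 at least 2-fold, with a median of -0.19. BCL6, the master repressor of this stage, was higher in OCI-Ly10 (53.7 against 26.3 CPM, 1.03, SE 0.12), beside 475 and 464 CPM in HT and K422. LMO2 was at 0.152 to 0.537 against 31.9 to 47.9 CPM, and MME, the antigen CD10, was below 1 CPM in both lines. In the plasma cell list 13 of 23 were higher in OCI-Ly10 and 7 in TMD8 (median 0.56). The elongation factor ELL2 was at 141 to 154 against 27.4 to 38.8 CPM, whereas JCHAIN, the joining chain of secreted IgM and IgA, was at 5.4, 2.74, 2.27 and 2.63 CPM against 157, 126 and 82.7 CPM, and BHLHE41 at 1.86 to 3.77 against 73.3 to 77.2 CPM. In the B-cell identity list 10 of 21 were higher in OCI-Ly10 and 6 in TMD8 (median 0.20). The coactivator POU2AF1 was at 144 to 247 against 17.2 to 40.7 CPM, and PAX5 and EBF1, which hold B-cell identity, were higher in TMD8 by 1.24 and 1.73 on the log2 scale.

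At the surface, cytokine and chemokine genes were higher in OCI-Ly10 for 17 of 36 and in TMD8 for 11 (median 0.57), with CCL3 at 11 to 20.8 against 0.131 to 0.763 CPM and IL32 at 0.691 to 1.63 against 16.1 to 19.8 CPM. Checkpoint and costimulatory genes were higher in OCI-Ly10 for 14 of 23 and in TMD8 for 5 (median 0.51). LAG3, an inhibitory receptor that binds MHC class II, was at 65.5, 76.7, 111 and 132 CPM against 1.33, 1.92 and 1.74 CPM (5.84, SE 0.29) and BTLA at 12.8 to 16.4 against 0.156 to 0.348 CPM, while CD274, which encodes PD-L1, did not pass (18.0 against 19.1 CPM).

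Homing receptors were higher in OCI-Ly10 for 7 of 15 and in TMD8 for 5 (median -0.08). CXCR4 was at 157 to 168 against 38.3 to 51.7 CPM, and S1PR1, which guides cells out of lymph nodes, was at 7.13 to 10.6 against 30.6 to 44.6 CPM. Of 35 adhesion genes 17 were higher in OCI-Ly10 and 13 in TMD8 (median 0.16), and 85.7% were called, against 66.1% of all tested genes. The integrin ITGAL was at 9.35 to 16.1 against 68.6 to 100 CPM. Of 23 TNF receptors and TRAFs 7 were higher in OCI-Ly10 and 2 in TMD8 (median 0.19), with TNFRSF1B at 254 against 108 CPM. Without the 6 h library of OCI-Ly10, or the 6 or 18 h library of TMD8, 1 of them was higher in TMD8, and without the 6 h library of TMD8 3 homing receptors were. Of 20 inhibitory receptors 7 were higher in OCI-Ly10 and 6 in TMD8 (median 0.04), with SIGLEC6 at 18.8 to 26.9 against 182 to 248 CPM.

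Among cell-cycle genes, in the G1/S list 15 of 44 were higher in OCI-Ly10 and 18 in TMD8 (median -0.04), and in the G2/M list 10 of 43 and 18 (median -0.16), with 3 and 5 genes at least 2-fold. The thymidylate synthase TYMS was at 58.2 to 75.3 against 179 to 229 CPM and the mitotic kinase AURKA at 29.9 to 41.4 against 106 to 128 CPM. Cyclins, CDKs and their inhibitors gave 7 and 10 of 32 (median -0.11), with CDK4 at 442 against 211 CPM. CCND2 did not pass (adjusted p = 0.0531) except without the 6 h library of OCI-Ly10 (-0.35). The MYC network gave 12 and 13 of 38 (median 0.02) and 1 gene at least 2-fold, MYCL, and MYC itself was at 188 ± 27.4 against 141 ± 6.68 CPM (0.42, SE 0.11), a difference that did not pass under AZD8186 (0.64). Early response genes gave 18 and 8 of 33 (median 0.42), 13 and 4 at least 2-fold, with EGR1 at 15.9 to 22.9 against 0.623 to 0.890 CPM. JUN did not pass, and JUNB and JUND were higher in OCI-Ly10 by 0.42 and 0.48 on the log2 scale. The call of JUNB did not hold without the 12 h library of OCI-Ly10 (0.38) or the 18 or 24 h library of TMD8 (0.31), and the difference of JUND was -0.12 under AZD8186.

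Of 41 genes of amino acid, serine and one-carbon metabolism 24 were higher in OCI-Ly10 and 9 in TMD8, 14 and 3 at least 2-fold (median 0.46), with the folate enzyme MTHFD1L at 89.9 to 119 against 29.1 to 30.7 CPM and the stress factor ATF5 the other way (817 against 2390 CPM). Glycolysis gave 15 and 11 of 38 (median 0.15), with HK2 at 67.0 against 156 CPM. Sterol and fatty acid synthesis gave 12 and 10 of 32 (median 0.12), with SQLE at 65.2 against 176 CPM and SREBF1 at 32.6 against 8.86 CPM. Called were 68.4% of the glycolysis and 68.8% of the sterol list, against 66.1% of all tested genes. The respiratory chain gave 7 and 9 of 42 (median 0.04), and 3 were higher in OCI-Ly10 without the 24 h library of TMD8. NDUFA4 is one of its genes at least 2-fold higher in TMD8. Chaperones gave 14 and 12 of 36 (median 0.03), with HSPA1B at 15.2 to 27.1 against 107 to 290 CPM, and lysosome, autophagy and iron genes 14 and 11 of 36 (median 0.20), with SQSTM1 at 341 against 92.4 CPM. Ribosomal protein genes gave 18 and 13 of 82 (median 0.06), and without the 6 h library of TMD8 28 were higher in OCI-Ly10, while without its 24 h library 21 were higher in TMD8. RPS26 was at 1310 against 464 CPM and RPL28 at 3280 against 7500 CPM.

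Among genes mutated in lymphoma, chromatin regulators gave 12 and 9 of 29 (median 0.17). EZH2 was at 125 against 65.1 CPM (0.95, SE 0.09), TET2 at 21.5 against 63.2 CPM and the linker histone gene HIST1H1C at 14.7 to 17.6 against 311 to 383 CPM (-4.50, SE 0.11). Other oncogenes and suppressors gave 21 and 17 of 55 (median 0.07), with NOTCH1 at 101 against 30.3 CPM and FOXP1 at 184 against 101 CPM. Called were 69.1% of this list, against 66.1% of all tested genes. HOX, PAX and other lineage factors gave 11 and 9 of 29 (median -0.04), with HOXA10 at 0 to 0.119 against 15.1 to 23.1 CPM and TBX21, a factor of T and NK cells, at 7.82 to 11 against 0.174 to 0.318 CPM. Cancer-testis genes were mostly too low, and of 8 tested 4 were higher in OCI-Ly10 and 3 in TMD8 (median 0.85).

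Imprinted genes gave 3 and 6 of 9 (median -0.89), with PEG10 at 0 to 0.225 against 32.0 to 42.8 CPM. Of the lists of other cell types, T- and NK-cell genes gave 5 and 2 of 7 (median 2.06), myeloid genes 1 and 5 of 7 (median -1.01) and stromal, endothelial and epithelial genes 5 and 2 of 9 (median 1.31). The latter gave 3 higher in OCI-Ly10 without its 12 h library, and the myeloid genes 2 without the 18 h library of TMD8. Of the T- and NK-cell genes, CD5, CD2, CD247, PRF1 and LCK were higher in OCI-Ly10, and GZMB and CD4 were higher in TMD8. The granule protease GZMB was at 49.4, 29.2, 20.7 and 13.2 CPM against 390, 588 and 336 CPM, with CD3D, CD3E and CD3G at 0 in TMD8, and the keratin KRT8 at 188 to 234 against 4.0 to 4.44 CPM, with EPCAM at 0 in OCI-Ly10.

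**Figure D5:**
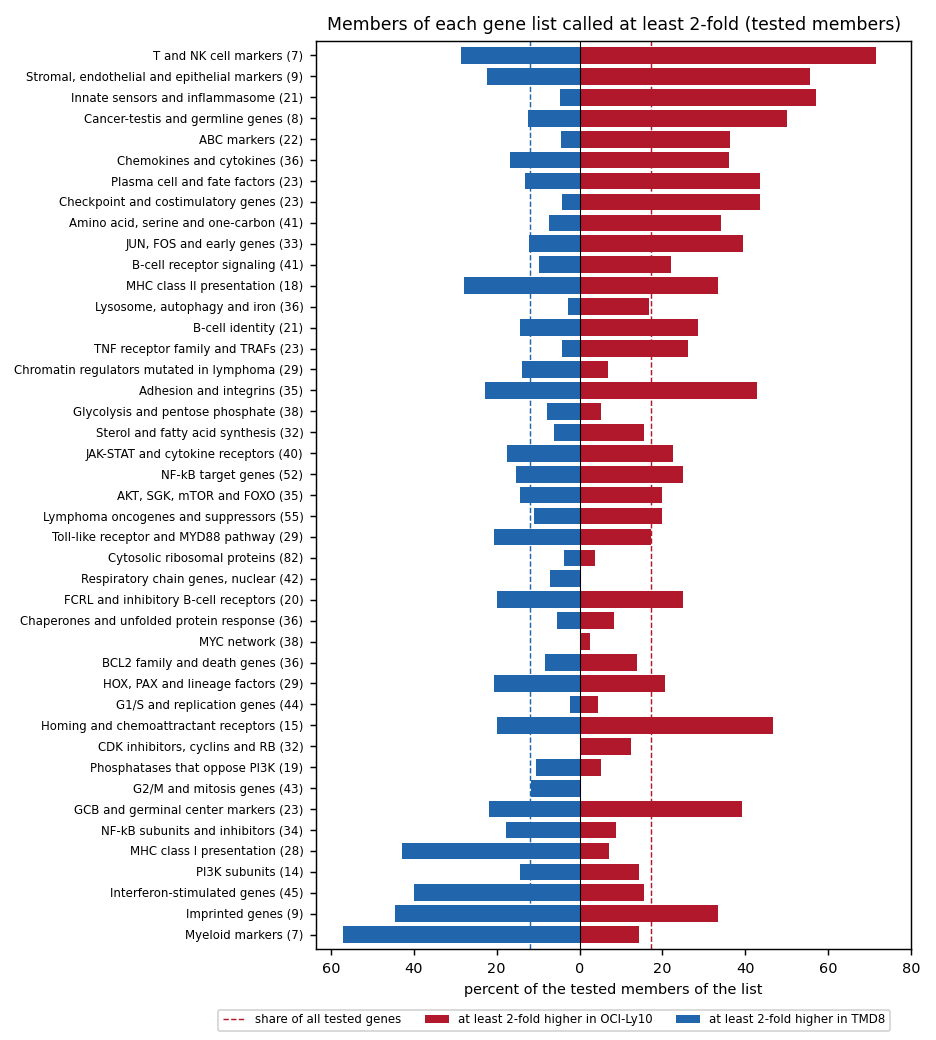
Percent of the tested members of the gene lists (number tested in brackets) called at least 2-fold higher in OCI-Ly10 (red, to the right) or TMD8 (blue, to the left), in the order of the list medians; dashed lines mark the shares over all tested genes, 17.2% and 11.9%. Innate sensors reach far to the right and interferon-stimulated and MHC class I genes far to the left, while ribosomal protein, cell-cycle and respiratory chain lists stay inside the dashed lines in both directions. Some lists with few tested genes reach further, T- and NK-cell markers to the right and myeloid and imprinted genes to the left.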

How the data were processed

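RNA of 30 cell-line libraries was sequenced, and the 7 DMSO libraries of OCI-Ly10 and TMD8 were compared. According to the methods and the submitters' processing notes, the authors aligned reads with HISAT2 and quantified genes with RSEM on GRCh38.p12, of versions that the sources used here do not give. The authors deposited expected counts, which RSEM estimates per gene and which are not normalized. TPM, as deposited by the authors, are divided by effective length and library total and served as an alternative. FPKM, as deposited by the authors, were not used.

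Expected counts of 21112 genes per library were rounded to whole numbers, 20 second copies of pseudoautosomal genes were summed, and 20526 of the resulting 21092 genes had a GENCODE 29 position by symbol. In R 4.3.3, edgeR 4.0.16 kept genes by filterByExpr with the line as group, scaled libraries with TMM factors and compared the lines with glmQLFit and glmQLFTest, line being the only term, with Benjamini and Hochberg adjustment over all tested genes. CPM are counts scaled to the library's total, and levels of different genes are not comparable because CPM ignore gene length. The TMM factors behind CPM of OCI-Ly10 and TMD8 came from their 7 libraries. Those behind CPM of HT and K422 came from all 30 libraries, so these values are not on the same scale. Genes at 0 in a line were set against a floor of 3 counts over its libraries, and intervals and floors cover counting error only. Promoters are RefSeq's.

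The comparison and the gene lists were chosen with earlier results of these data known. Named genes are the 15 largest non-overlapping differences per direction at 10 CPM or more, the 2 smallest p of each of 44 lists, the 8 highest off and on genes per direction, the PI3K lists, genes that the study names, and genes of runs and extreme windows. Other genes named in the text were chosen after their values were seen. XIST, Y-linked genes, ribosomal RNA, variable segments and unnamed loci are counted but not named, and some genes and 1 list are not reported here. Alternatives were DESeq2 1.42.0 (its test and its size factors), limma-voom (limma 3.58.1), other filters, time as a term, matched times, log2(TPM + 1), all 15 DMSO libraries, all 14 ABC libraries, the AZD8186 libraries, other thresholds and each library left out. On simulated counts of 11707 genes, 67, 67 and 66 genes above a mean of 1 CPM were changed 1.5-, 2- and 4-fold. There edgeR called 52.2%, 88.1% and 98.5% of them, with 8 of 167 calls false. In the data 66.1% of the genes were called, so the simulated shares do not carry over to this comparison. Python 3.11.15 read and drew the data.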

Additional observations from a re-analysis of the deposited data

Results flagged for a closer look

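In 14 of 261 named genes checked, 1 of the 4 OCI-Ly10 libraries lay far from the other 3 by Dixon's criterion, where chance gives about 1 in 20. At 6 h AURKA (41.4 CPM, others 29.9 to 30.8), GCSAM (3.37, others 1.57 to 1.61) and TMSB4X (627, others 525 to 538) were high, and MTOR (59.0, others 70.0 to 72.5), PTPRG (12.3, others 17.6 to 18.6), ST3GAL1 (58.0, others 66.7 to 68.5) and ZNF321P (0.506, others 1.42 to 1.49) were low. At 12 h RELA (117, others 105 to 107), ZNF443 (1.61, others 0.956 to 1.01) and ZNF816 (12.8, others 8.76 to 9.28) were high. At 18 h BTK (139, others 123 to 125) was high and HMBOX1 (0.809, others 1.17 to 1.24) low, and at 24 h VANGL1 (8.85, others 6.62 to 6.86) was high and SEMA3C (76.7, others 89.0 to 90.0) low. Each time point is 1 library, so time and library cannot be told apart.

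For 3 of 346 named genes tested, the difference between the lines changed under AZD8186 by the interaction term of edgeR's quasi-likelihood test. For EGR1 it changed by -2.49 (4.72 under DMSO, 2.26 under AZD8186, adjusted p = 0.0151), for SOCS3 by -1.14 (-2.20 and -3.30, adjusted p = 0.0168) and for TESPA1 by -1.56 (4.39 and 2.78, adjusted p = 0.0354). TESPA1, an adaptor of antigen receptor signaling, was at 40.0, 48.0, 68.0 and 70.8 CPM in OCI-Ly10 and 2.67, 2.54 and 2.87 CPM in TMD8 under DMSO. In all 3 the direction stayed the same.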

How the results depend on the processing

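Counts of called genes over the whole genome stayed within 1.5 times their value under all alternatives but 3. Asking for 5 CPM in 3 libraries, which tests fewer genes, gave 1244 and 926 genes at least 2-fold higher in OCI-Ly10 and TMD8, log2(TPM + 1), which shrinks low genes, gave 1162 and 860, and a mean of 5 CPM in place of 20 CPM for an on gene gave 100 and 89 genes. With 1 library left out, 3670 to 4013 genes were higher in OCI-Ly10 and 3544 to 3857 in TMD8, and 1901 to 2093 and 1387 to 1464 at least 2-fold. The residuals of libraries of the same time correlated by 0.13 at 6 h, 0.044 at 18 h and 0.294 at 24 h, so that time does not pair the lines at 18 h. With time as a term 3976 and 3817 genes were called. Of the counts of list members over all alternatives 1686 stayed within 1.5 times and 74 did not, 15 of these with 5 CPM in 3 libraries, 10 at an adjusted p of 0.01 and 8 under AZD8186, where the genes higher in TMD8 numbered 11 instead of 18 in the G2/M list and 5 instead of 13 in the MYC network.

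Of the values of named genes over all alternatives 6723 kept direction and call, 63 lost the call, 23 gained it and 5 reversed, none of which was called under DMSO except JUND. The reversed were IL6 without the 6 h library of TMD8 (1.36, against -1.37 and -1.33 without the 18 h or the 24 h library), CD274 with log2(TPM + 1) (0.44) and, under AZD8186, INPP4B (1.47), JUND (-0.12) and TLR9 (-0.47). Causes were not tested. The depth limits genes below about 1 CPM, whose ratios rest on few counts.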
